A study of Homo sapiens with 9 samples.

Results

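MALAT1 and NEAT1 are long noncoding RNAs that stay in the nucleus, made from neighbouring genes on the same strand of human chromosome 11. They are the only members described here, 2 of the 64253 genes in a table of read counts, and both passed the filter on low counts that kept 16366 genes. The pair was chosen by symbol with earlier results in view. MALAT1 was picked because its level was lower with a FOXF1 plasmid than with an empty vector, so that difference is given as a description and is not tested. The counts come from EPC2, which the labels call a normal squamous line of the human esophagus, in 3 groups of 3 libraries. Untreated cells (labelled Ctrl) received nothing, a second group (Lipo) received an empty vector with Lipofectamine 2000, a lipid that carries DNA into cells, and the remaining group (Fox) received a plasmid for FOXF1, a forkhead transcription factor, delivered with that lipid. All groups are the same cell line, and the sources used here do not give the time after transfection or the share of cells that took up DNA. According to the design text the 3 libraries of a group are biological replicates. The p-values of single genes are based on the spread of libraries within groups, estimated with information shared across genes. Those of the permutation test come from regrouping the libraries.

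MALAT1 collects in nuclear speckles, bodies rich in splicing factors. NEAT1 has a short isoform, which ends in a poly(A) tail, and a long isoform, which is the scaffold of paraspeckles, bodies that hold RNA-binding proteins and form beside speckles. MALAT1 and the long NEAT1 isoform end without a poly(A) tail. RNase P cuts each precursor in front of a tRNA-like RNA, called mascRNA for MALAT1 and menRNA for NEAT1, and the new 3′ end folds into a triple helix in which U-rich stretches hold an A-rich tract. NEAT1 and paraspeckles are known to increase in many kinds of cell stress.

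The 3′ ends are shown because the libraries were made from polyadenylated RNA, and a mature end with no tail offers an oligo(dT) step only the adenines in the RNA itself. All sequences are from GENCODE release 29 transcripts or the GRCh38 genome, plus strand, and U is written as T. In the first pair, which ends where RNase P cuts, capitals mark the U-rich stretches and the terminal A tract. The MALAT1 end lies at chr11:65505987-65506116 and the NEAT1 end at chr11:65445411-65445540.
MALAT1 3′ end: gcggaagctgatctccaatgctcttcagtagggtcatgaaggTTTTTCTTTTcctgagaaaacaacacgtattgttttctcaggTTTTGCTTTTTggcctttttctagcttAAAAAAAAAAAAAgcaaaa
NEAT1 long isoform 3′ end: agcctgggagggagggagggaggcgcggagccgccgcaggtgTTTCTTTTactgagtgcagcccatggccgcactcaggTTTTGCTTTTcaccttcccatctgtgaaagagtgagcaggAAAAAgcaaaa

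Both ends close with the same letters after the A tract. The MALAT1 tract has 13 adenines, 6 bases from the mature end. In the long NEAT1 isoform the longest run of adenines has 22, at chr11:65440843-65440864, which is 4676 bases from the mature end. Runs of at least 8 adenines number 2 in the 8355 bases of MALAT1 before mascRNA and 6 in the 22743 bases of the long NEAT1 isoform. The small RNAs that follow, mascRNA at chr11:65506117-65506173 and menRNA at chr11:65445541-65445598, matched at 41 of 61 aligned columns (67.2%).
mascRNA: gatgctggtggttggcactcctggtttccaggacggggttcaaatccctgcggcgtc
menRNA: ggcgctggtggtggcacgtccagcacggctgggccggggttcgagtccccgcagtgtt

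The short NEAT1 isoform is shown around its annotated ends. In the stretch chr11:65426483-65426542 below, capitals mark an AATAAA, the usual letters of a poly(A) signal, at chr11:65426503-65426508. The annotation places 5 ends of short NEAT1 transcripts between bases 65426385 and 65426513, of which 4 lie before this AATAAA and 1 just after it, so these ends do not show that it is the signal in use.
NEAT1 short isoform 3′ end: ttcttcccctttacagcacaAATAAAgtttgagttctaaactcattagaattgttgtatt

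The counts do not separate the isoforms. MALAT1 (ENSG00000251562) spans chr11:65497688-65506516 with 8829 exonic bases, and NEAT1 (ENSG00000245532) spans chr11:65422774-65445540 with 22767 exonic bases, both annotated as lincRNA. The entries for mascRNA and menRNA held 0 reads in every library, as did the other entries that lie inside the genes or repeat the MALAT1 symbol, except AP000769.7. That entry is antisense to MALAT1 at chr11:65498010-65498405, and it held 13 reads over all 9 libraries. The sources used here do not say how the counting treated strand and overlapping entries, so a read lost to an overlap would not show.

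Library totals lay between 34390666 and 39973289 counts, and 3 counts, the limit taken for a gene without reads, correspond to 0.075 to 0.087 CPM (counts scaled to a library of 1000000). This limit covers counting error only. FOXF1 itself, which checks the labels, had 367, 184 and 141 reads in the FOXF1 plasmid libraries. It had 0, 0 and 6 reads in empty vector libraries and 1, 0 and 0 in untreated ones. Mitochondrial genes took 18.6% to 22.4% of the counts in untreated libraries, 10.3% to 11.7% in empty vector libraries and 13.7% to 14.7% in FOXF1 plasmid libraries. The labelled cell type was not borne out by its markers, since those of squamous epithelium were nearly absent. The 6 markers summed to 0.227 to 0.597 CPM per library, with TP63 and SOX2 at 0 reads and KRT5 alone passing the filter. Markers of fibroblasts and leukocytes summed to at most 0.221 CPM in any library, with COL1A2 and PTPRC at 0 reads, and endothelial markers to 0.284 to 0.933 CPM. In bulk RNA, fewer cells of a type and less RNA per cell cannot be told apart.

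MALAT1 was lowest with the FOXF1 plasmid and its range overlapped between the other groups. Its 1490, 1618 and 1396 reads in untreated libraries corresponded to 42.4, 44.6 and 39.6 CPM on library sizes scaled by TMM, a method that assumes that most genes do not change. With the empty vector, 1608, 2261 and 2088 reads gave 40.6, 51.3 and 48.6 CPM. With the FOXF1 plasmid, 1475, 1058 and 1477 reads gave 36.7, 31.1 and 39.4 CPM. The first empty vector library thus sat inside the untreated range, and the other 2 sat above it. Every FOXF1 plasmid library lay below every empty vector library, as for 5.68% of all tested genes, and below every untreated one, as for 12.6%. The share of genes below both groups was not counted. The highest FOXF1 plasmid library was only just below the lowest untreated one. That last gap depends on the scaling, since with library totals alone the FOXF1 plasmid libraries had 37.7, 30.8 and 40.05 CPM against 37.3, 40.6 and 37.6 in untreated cells, and the groups overlapped. Group means on the TMM scale were 42.2 ± 2.51 CPM for untreated, 46.8 ± 5.58 for empty vector and 35.7 ± 4.21 for FOXF1 plasmid cells (SD, n = 3 each).

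NEAT1 had more reads than MALAT1 in every library, and it was higher in both transfected groups than in untreated cells. In untreated libraries 3704, 3933 and 3888 reads gave 105, 108 and 110.3 CPM. With the empty vector 5524, 7055 and 7154 reads gave 139, 160.1 and 166 CPM. With the FOXF1 plasmid 5824, 4280 and 5222 reads gave 145, 126 and 139 CPM. Every transfected library lay above every untreated one, as for 9.84% of all tested genes, and the transfected groups overlapped each other. The means were 108.0 ± 2.5 CPM for untreated, 155 ± 14.1 for empty vector and 137 ± 9.68 for FOXF1 plasmid cells (SD, n = 3 each). The untreated libraries were the tightest of the 3 groups for both RNAs.

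**Figure D1:**
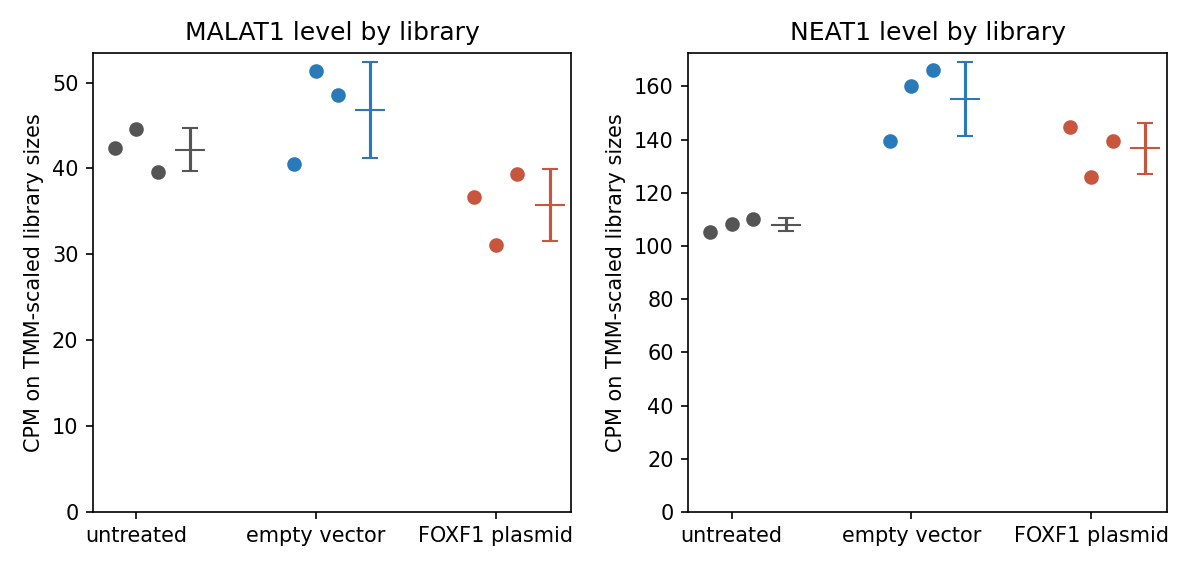
MALAT1 (left) and NEAT1 (right) in each of the 9 libraries, in CPM on TMM-scaled library sizes, with the group mean and SD beside the points (n = 3). For MALAT1 the FOXF1 plasmid libraries lie between 31.1 and 39.4 CPM, below the other groups, and for NEAT1 all 6 transfected libraries lie above the highest untreated value of 110.3 CPM. Of all tested genes, 5.68% had every FOXF1 plasmid library below every empty vector one, and 12.6% below every untreated one. In 9.84% every transfected library lay above every untreated one.

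Levels of the 2 genes can be set side by side only per length. Per kilobase of annotated exon, MALAT1 stood at 4.78 ± 0.284 CPM in untreated, 5.3 ± 0.632 in empty vector and 4.05 ± 0.477 in FOXF1 plasmid cells. On that scale NEAT1 stood at 4.74 ± 0.11, 6.82 ± 0.62 and 6.0 ± 0.425 CPM per kilobase. The levels were thus nearly equal in untreated cells, with a NEAT1 to MALAT1 ratio of 0.993, and the ratio was 1.29 in empty vector and 1.48 in FOXF1 plasmid cells. This reading takes all NEAT1 reads as spread over the long isoform. If all came from a short isoform of 3441 exonic bases, NEAT1 would stand at 31.4, 45.1 and 39.7 CPM per kilobase and the ratios at 6.57, 8.51 and 9.81. By CPM among the 704 tested lincRNAs, NEAT1 ranked 3 in untreated, 1 in empty vector and 2 in FOXF1 plasmid cells, and MALAT1 ranked 9, 8 and 10.

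Transfection as such was tested with both transfected groups averaged against untreated cells, a contrast that is independent of the one used to pick MALAT1. NEAT1 rose 1.35-fold, a log2 fold change of 0.43 ± 0.06 (SE; adjusted p = 7.15e-06, edgeR quasi-likelihood test with Benjamini-Hochberg adjustment over all tested genes), and it was higher in 6 of 6 transfected libraries. In that contrast 18.5% of all tested genes were called, 9.51% were called higher and 9.84% had every transfected library above every untreated one, so a rise was common, and 1921 genes had a larger fold change than NEAT1. Among lincRNAs 22 of 704 were called higher and 16 lower, with a median log2 fold change of 0.08, and 146 had a fold change above that of NEAT1. MALAT1 did not pass the test, at -0.04 ± 0.08 (adjusted p = 0.754, approximate 95% interval -0.20 to 0.11), and its sign turned to 0.16 (adjusted p = 0.192) on library totals alone. With offsets for GC content and gene length, which remove trends shared by genes of like composition, MALAT1 stood at -0.17 and passed the threshold (adjusted p = 0.0415). NEAT1 stood at 0.43 with those offsets and also after mitochondrial genes and their pseudogenes were left out. MALAT1 stood at -0.05 after the same omission, which removes the counts that were a smaller share of the transfected libraries.

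The transfected groups were also set against untreated cells separately, and these 2 comparisons share the untreated libraries. With the empty vector NEAT1 rose 1.44-fold (log2 0.52 ± 0.07, adjusted p = 2.88e-06, edgeR), beside 10.2% of all genes called higher (19.6% in either direction) and 17.4% with groups that did not overlap in that direction. With the FOXF1 plasmid NEAT1 rose 1.27-fold (log2 0.34 ± 0.07, adjusted p = 0.00179, edgeR), beside 4.63% called higher (8.52% in either direction) and 14.1% without overlap. NEAT1 was thus called in both groups. MALAT1, given without a test because these libraries served to choose it, had log2 fold changes of 0.15 ± 0.09 (empty vector) and -0.24 ± 0.09 (FOXF1 plasmid), where 12.6% of all genes had every FOXF1 plasmid library below every untreated one. Under the GC and length offsets the first of these was -0.05, so its sign differed between settings.

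Between the transfected groups both RNAs had lower means with the FOXF1 plasmid. For MALAT1 the level with the FOXF1 plasmid was 0.763 of that with the empty vector, a log2 fold change of -0.39 ± 0.09. For NEAT1 the level was 0.88 of that with the empty vector, or -0.18 ± 0.07 on the log2 scale, with overlapping libraries. The contrast chose MALAT1, so nothing is read from its size. In this contrast 5.68% of all tested genes had every FOXF1 plasmid library below every empty vector library, 1319 genes had a fold change lower than that of MALAT1, and 0.055% were called at the adjusted threshold by edgeR, with 0% lower (9.43% had an unadjusted p below 0.05 in either direction). DESeq2 called 2 genes lower. Fold changes across genes followed GC content, with a Spearman rho of 0.387 over 16213 genes, which are not independent replicates. MALAT1, with 40.3% GC over its exons, belongs to the second-lowest of 10 equal bins of genes by GC, whose median log2 fold change was -0.13. With GC and length offsets MALAT1 stood at -0.23 and NEAT1 at -0.07.

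**Figure D2:**
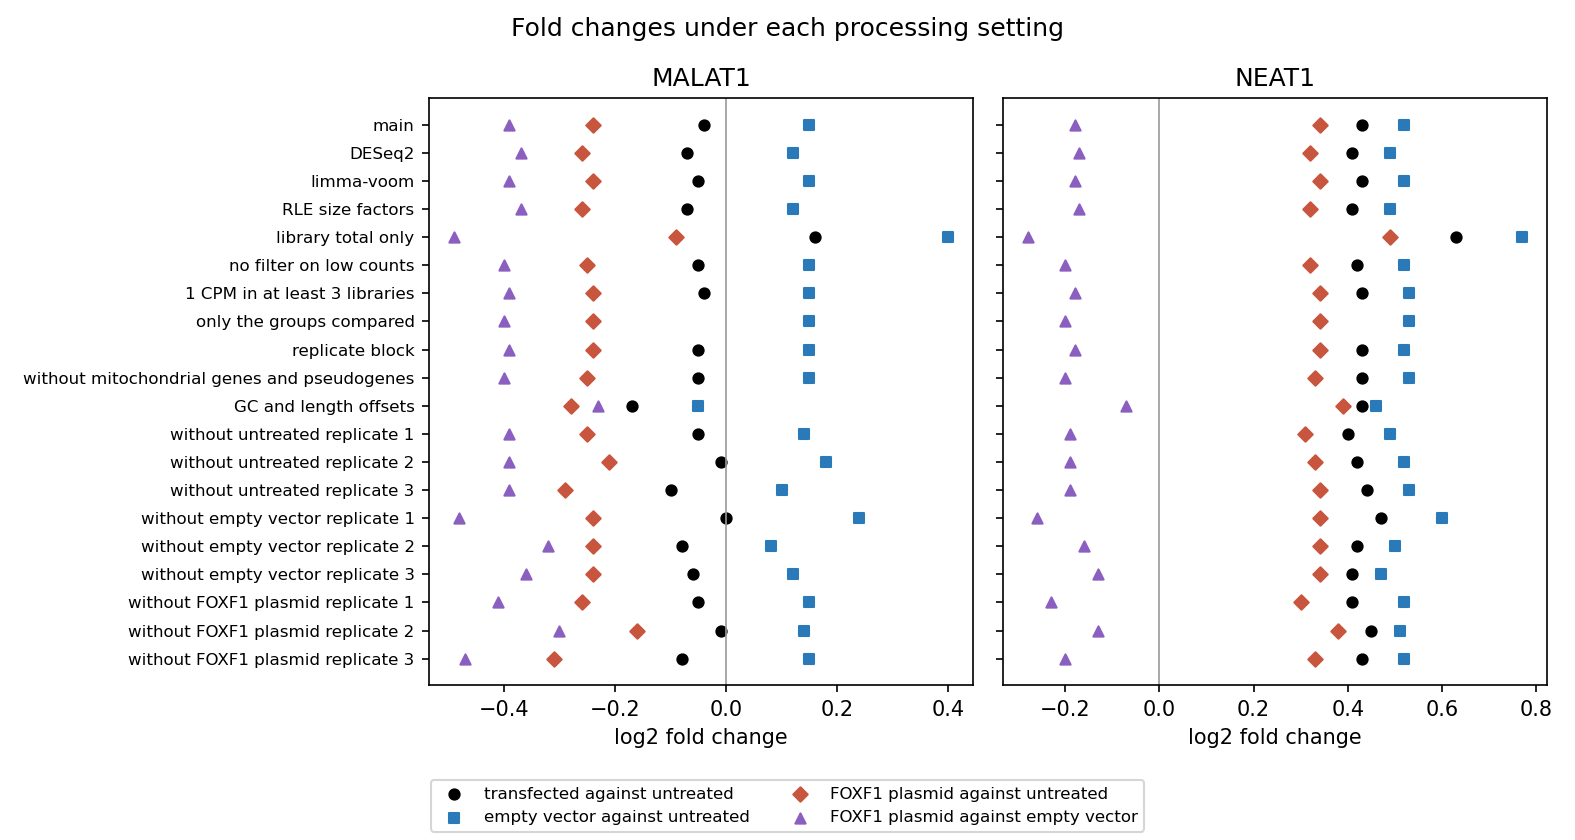
Log2 fold changes of MALAT1 (left) and NEAT1 (right) in 4 contrasts (symbols) under the main processing and each alternative (vertical axis). NEAT1 stays above 0 in its 3 contrasts with untreated cells, between 0.30 and 0.77, and MALAT1 with the FOXF1 plasmid against the empty vector stays below 0, between -0.49 and -0.23, while MALAT1 in transfected against untreated cells lies on both sides of 0 and turns to 0.16 on library totals alone.

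The ratio of NEAT1 to MALAT1 reads within a library does not depend on how libraries are scaled. It was 2.49, 2.43 and 2.79 in untreated libraries. Empty vector libraries had ratios of 3.44, 3.12 and 3.43, and FOXF1 plasmid libraries had 3.95, 4.05 and 3.54. All 6 transfected libraries lay above all untreated ones. On the log2 scale the ratio averaged 1.84 ± 0.14 (SD, n = 6) in transfected and 1.36 ± 0.11 (SD, n = 3) in untreated libraries, a 1.39-fold difference. The two-sided exact permutation test gave p = 0.0238, the smallest that the 84 splits of 6 against 3 libraries allow. With the empty vector alone against untreated cells the log2 difference was 0.38, given without a test because those MALAT1 values served to choose it. The FOXF1 plasmid libraries all lay above the empty vector libraries, a difference that the choice of MALAT1 bears on and that is not tested.

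**Figure D3:**
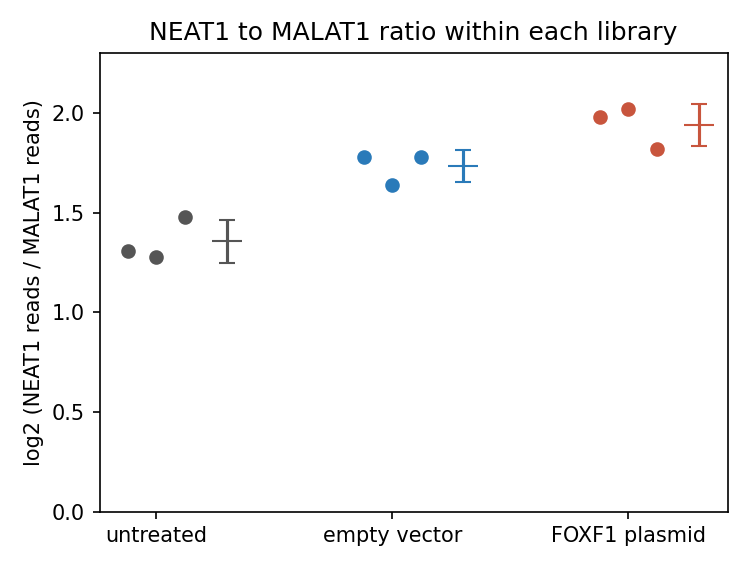
Log2 ratio of NEAT1 to MALAT1 reads in each of the 9 libraries by group, with the group mean and SD beside the points (n = 3). Untreated libraries lie between 1.28 and 1.48 and all 6 transfected libraries between 1.64 and 2.02.

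The proteins that build paraspeckles on NEAT1 were called in both directions. Of 26 listed paraspeckle proteins, all tested, 3 were called higher and 6 lower in transfected against untreated cells, beside 9.51% and 9.02% of all genes, and their median log2 fold change of 0.04 was next to the 0.03 of all genes. On library totals alone the split was 13 higher and 1 lower, beside 5015 and 335 of all 16366 genes. That scaling moves the median of all genes by 0.2. The essential core proteins did not pass the main test, with SFPQ at 0.15 ± 0.07 (adjusted p = 0.149, edgeR) and NONO at -0.12 ± 0.05 (adjusted p = 0.111, edgeR). PSPC1 stood at 0.07 and RBM14, which is needed for paraspeckle assembly, at -0.10. Under other settings some of these were called, namely SFPQ higher on library totals alone (0.34), NONO lower by DESeq2 (-0.14) and with GC and length offsets (-0.21), and RBM14 lower with the offsets (-0.14). NONO and RBM14 stood at 0.08 and 0.09 on library totals alone. The cold-inducible RNA-binding protein RBM3 rose by a log2 of 0.45 ± 0.06, from 112 ± 7.67 CPM in untreated cells to 157 ± 16.2 in empty vector and 148 ± 7.23 in FOXF1 plasmid cells. HNRNPK, known to favour the long NEAT1 isoform, rose by 0.23 ± 0.06 (adjusted p = 0.00841, edgeR), although not with GC and length offsets, and the splicing regulator SRSF10 rose by 0.34. NUDT21, a subunit of the cleavage factor that acts at the short isoform's poly(A) site, fell by 0.33 on the log2 scale, from 66.5 ± 7.31 CPM to 53.3 ± 6.66 and 52.6 ± 2.49. Its partner CPSF6 stood at 0.13 and did not pass the test. UBAP2L fell by 0.33 and the chromatin remodeller SMARCA4 fell by 0.24, but on library totals alone the falls of NUDT21 and SMARCA4 were not called.

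Among 30 proteins of nuclear speckles, where MALAT1 resides, 7 were called higher and 8 lower, beside 9.51% and 9.02% of all genes, with a median of 0.04. Library totals alone gave 15 higher and 0 lower, beside 5015 and 335 of all 16366 genes. GC and length offsets gave 1 higher and 12 lower, beside 1305 and 2476 of all genes, so no direction holds for the list. With the empty vector against untreated cells 7 were called higher and 6 lower, beside 1676 and 1533 of all 16366 genes. With the FOXF1 plasmid 0 were called higher and 6 lower, beside 757 and 637 of all genes. The splicing factor SRSF1, which binds MALAT1, rose by a log2 of 0.22 ± 0.07, from 67.8 ± 1.43 CPM to 81.4 ± 10.9 in empty vector and 76.5 ± 5.64 in FOXF1 plasmid cells. LUC7L3 rose by 0.31, SF3B1 by 0.25 and RBM39 by 0.24, and none of these 4 rises was called with GC and length offsets. That of SF3B1 was also not called with RLE size factors, by DESeq2 or by limma-voom. SRSF2 fell by 0.26 on the log2 scale, from 90.9 ± 2.69 CPM to 76.4 ± 5.3 and 75.4 ± 3.54. SRRM2, which with SON forms the core of speckles, fell by 0.29, the core spliceosome protein PRPF8 fell by 0.30 and PNN fell by 0.28, although on library totals alone these falls and that of SRSF2 were not called. SON fell by 0.18 under TMM and stood at 0.02 on library totals alone.

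The machinery that makes and guards the 3′ ends shown above held calls in both directions. Of 13 genes for RNase P, RNase Z and the triple helix binding protein METTL16, 2 were called higher and 1 lower, beside 9.51% and 9.02% of all genes, with a median of -0.04. METTL16 stood at -0.02 ± 0.08 and ELAC2, the RNase Z that trims mascRNA, at -0.14 ± 0.05 (adjusted p = 0.0607, edgeR). ELAC2 was called lower with RLE size factors (adjusted p = 0.0406, edgeR), by DESeq2 (adjusted p = 0.00742) and with GC and length offsets (adjusted p = 0.00342, edgeR), and it stood at 0.06 on library totals alone. The RNase P protein subunits RPP14 and POP1 rose by 0.62 and 0.41, at mean levels of 5.09 and 8.79 CPM in untreated cells. RPP25 fell by 0.17 under TMM and stood at 0.02 on library totals alone.

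MALAT1 carries the methylated base m6A, and of 13 listed proteins that write, remove or read this mark in the nucleus 2 were called higher and 2 lower, beside 9.51% and 9.02% of all genes. The demethylases went opposite ways, as ALKBH5 rose by a log2 of 0.46 ± 0.07 and FTO fell by 0.48 ± 0.08. HNRNPC, which binds RNA opened by m6A, rose by 0.33, and the writer subunit ZC3H13 fell by 0.70. A list of 19 proteins that degrade nuclear RNA held the nuclear exosome, its adaptors and XRN2, which is not part of the exosome. Of these 19, 1 (XRN2) was called higher and 3 lower, beside 9.51% and 9.02% of all genes, with a median of -0.02. The 5′ to 3′ exonuclease XRN2 rose by 0.61 ± 0.09, from 19.9 ± 1.59 CPM to 33.3 ± 5.25 in empty vector and 27.6 ± 2.84 in FOXF1 plasmid cells. The exosome cofactor MPHOSPH6 fell by 0.54, and the subunits EXOSC4 and EXOSC1 fell by 0.30 and 0.21, of which only MPHOSPH6 was called on library totals alone.

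Of 6 transcription factors reported to drive NEAT1, 4 were called lower in the contrast in which NEAT1 rose, beside 9.02% of all genes. Library totals alone gave 2 higher and 0 lower, beside 5015 and 335 of all 16366 genes. HIF1A, the hypoxia factor, fell by 0.30 on the log2 scale, from 69.1 ± 6.39 CPM to 58.9 ± 6.63 in empty vector and 53.4 ± 4.77 in FOXF1 plasmid cells. RELA, a subunit of NF-kB, and EPAS1, a second hypoxia factor, fell by 0.23 and 0.21. Outside the naming rule, and chosen after their values were seen, the heat shock factor HSF1 fell by 0.21 and ATF2 stood at 0.45 without passing the test (adjusted p = 0.0689, edgeR). These are transcript levels, and these factors are largely controlled as proteins.

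**Figure D4:**
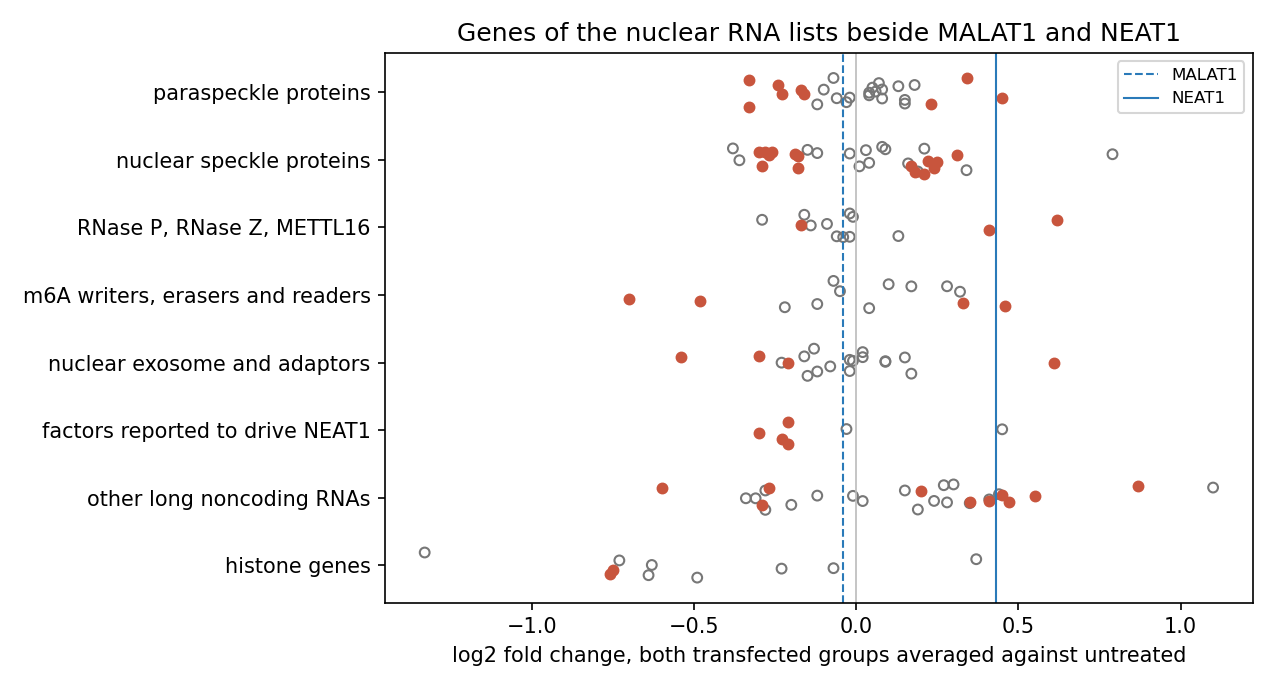
Log2 fold change of each tested gene of 8 lists (rows) with both transfected groups averaged against untreated cells, TMM scaling, filled where the adjusted p is below 0.05, with lines for MALAT1 (-0.04, not called) and NEAT1 (0.43). Called genes lie on both sides of 0 in most lists, with 3 higher and 6 lower among 26 paraspeckle proteins (13 and 1 on library totals alone). Of all 16366 genes, 1557 were called higher and 1477 lower (5015 and 335 on library totals alone).

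Of 28 other long noncoding RNAs tested 7 were called higher and 3 lower, beside 9.51% and 9.02% of all genes, with a median log2 fold change of 0.22 beside 0.03 for all genes. The counts were 5 and 3 by limma-voom, beside 1408 and 1463 of all 16366 genes. With GC and length offsets they were 6 and 5, beside 1305 and 2476 of all genes. MIAT, itself a nuclear RNA, rose by 0.87 ± 0.30 from only 0.967 CPM (not called by limma-voom), CRNDE by 0.55 (not called by limma-voom or with offsets or RLE size factors) and the imprinted RNA H19 by 0.47. MIR4435-2HG fell by 0.60 ± 0.06, from 83.0 ± 3.8 CPM to 52.4 ± 4.43 and 56.9 ± 3.05, and CYTOR fell by 0.27, but these are near-identical copies whose reads the counting could split either way. LINC00263 fell by 0.29, and neither that fall nor that of CYTOR was called on library totals alone.

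Genes listed as making RNAs without a poly(A) tail had few reads in these libraries. The histone genes were taken by symbol, and whether their reads came from RNAs without a tail was not tested. The 71 replication-dependent histone genes summed to 14.2 to 15.1 CPM in untreated libraries, 8.15 to 10.3 in empty vector and 10.3 to 12.05 in FOXF1 plasmid libraries, and 15 small noncoding RNAs without a tail summed to between 0.726 and 2.62 CPM. Of the 10 histone genes tested, 0 were called higher and 2 lower in transfected against untreated cells, beside 9.51% and 9.02% of all genes. The called genes were HIST1H2BH, which fell by 0.76 on the log2 scale, and HIST1H2BK, which fell by 0.75 (not called with offsets or on library totals alone). Both are close in sequence to other histone genes. The part of tail selection in the values of MALAT1 and NEAT1 was not tested.

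Genes close to the pair were called in both directions. Of 44 gene entries within 300 kb of either member 26 were tested, and 2 were called higher and 5 lower, beside 9.51% and 9.02% of all genes, with a median of -0.03. Library totals alone gave 12 higher and 0 lower, beside 5015 and 335 of all 16366 genes. FRMD8, the neighbour upstream of NEAT1, rose by a log2 of 0.27 ± 0.07 (adjusted p = 0.00826, edgeR), from 39.5 ± 5.11 CPM to 47.7 ± 3.43 and 47.5 ± 0.632. SYVN1, an enzyme of endoplasmic reticulum protein degradation, rose by 0.32, whereas SSSCA1, SIPA1 and POLA2 fell by 0.33, 0.25 and 0.24, falls not called on library totals alone. Between the transfected groups the neighbours' log2 fold changes ran from -0.67 to 0.43 with a median of 0.06.

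**Figure D5:**
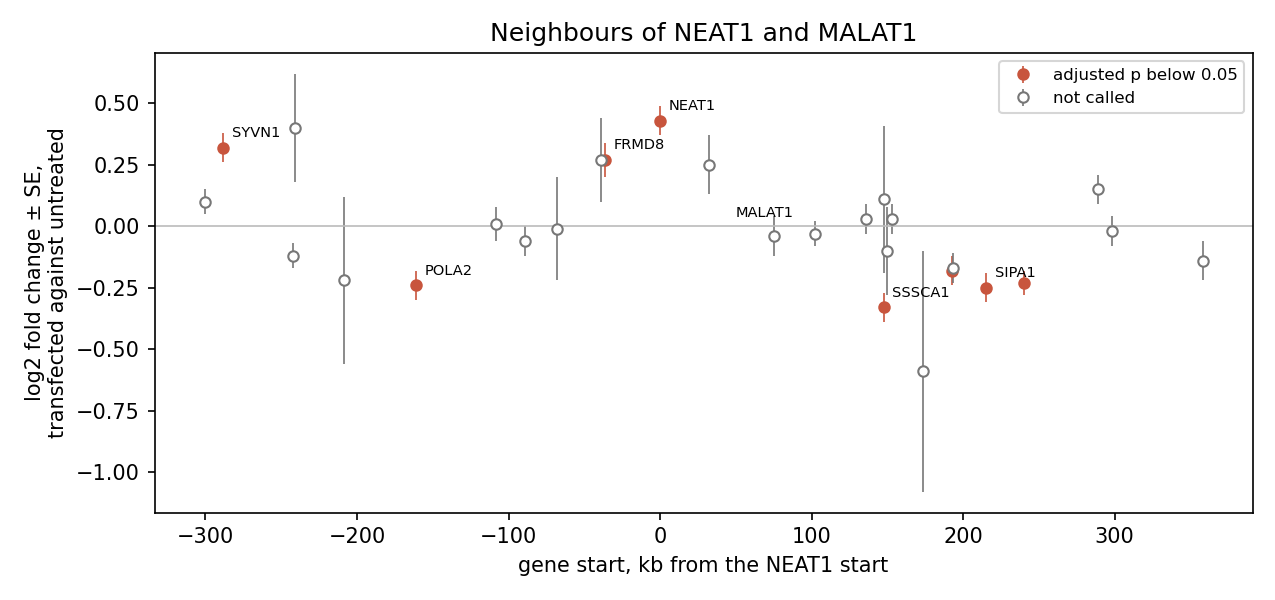
Log2 fold change ± SE, both transfected groups averaged against untreated cells on TMM scaling, for NEAT1, MALAT1 and the 26 tested neighbours by the distance of each gene start from the NEAT1 start in kilobases. NEAT1 has the highest value of the window at 0.43, FRMD8 stands at 0.27, and the called falls lie at -0.18 to -0.33 (none of them called on library totals alone).

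FOXF1 belongs to the forkhead family, whose core motif is TGTTTA. RefSeq (GRCh38.p14) gives 2 MALAT1 promoter windows of 300 bases around a start, at chr11:65497488-65497787 and chr11:65498795-65499094. Neither holds TGTTTA on either strand, while 12.3% of 35116 promoter windows do. The GC box GGGCGG occurs 5 times in the first window and not in the second, and 45.0% of all windows hold it on either strand. These are letter matches and say nothing of binding.

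The genes whose levels ran most like each member over the 9 libraries were different. By Pearson's r of log2 CPM over 10811 genes, given as a description since all genes share the groups and the scaling, MALAT1 was closest to BRCA1 (r = 0.949), TCF12 (0.944), ICE2 (0.943), SMC2 (0.939) and B3GALNT2 (0.937). All of these 5 were highest with the empty vector and lowest with the FOXF1 plasmid, as MALAT1 was. That order follows from choosing them by likeness to MALAT1, and the share of all genes with it was not counted. TCF12, for example, stood at 21.4, 23.2 and 19.5 CPM in untreated, empty vector and FOXF1 plasmid cells. NEAT1 was closest to YIPF5 (r = 0.986), TFDP2 (0.984), SUN1 (0.979), GOLGA8A (0.979) and P4HA1 (0.978). P4HA1, a collagen prolyl hydroxylase, stood at 16.4, 34.4 and 28.6 CPM, and SUN1, a protein of the inner nuclear membrane, at 132, 158 and 147 CPM. GOLGA8A has near-identical copies, so its reads are uncertain. MALAT1 and NEAT1 themselves had an r of 0.32, which put NEAT1 at rank 2645 for MALAT1 and MALAT1 at rank 4441 for NEAT1.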

How the data were processed

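Per the labels' protocols, the 9 EPC2 libraries came from a strand-marking kit that selects polyadenylated RNA. The authors deposited unnormalized read counts for each Ensembl gene, per the file headers. Among tools, bcl2fastq, STAR 2.5.2b and HTSeq are listed in the submitters' processing notes, with GRCh38 as the build. The sources used here do not give the annotation release, strand setting or overlap mode. Members and gene lists were chosen with earlier results of these data known.

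The counts went into edgeR 4.0.16 (R 4.3.3). filterByExpr (minimum count 10) kept genes, TMM scaled libraries, and a quasi-likelihood model with 3 group means was fitted to all 9 libraries. P-values were adjusted by Benjamini-Hochberg over 16366 genes, with 0.05 as the threshold. SE is the absolute log2 fold change over the square root of F. On simulated data for transfected against untreated cells, the fit recovered 41 of 70 genes changed 1.25-fold (58.6%). It recovered 56 of 70 at 1.5-fold (80%) and 60 of 60 at 2-fold (100%), with 14 false calls among 16036 genes. The changed genes were far fewer than those called in the data and none was low in level, so these rates need not hold there. Replicate libraries differed beyond sampling noise (chi-square per degree of freedom 8.6 to 23.2).

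Named genes were up to 3 called rises and 3 called falls per list, plus core proteins, direct neighbours and the 5 genes most correlated with each member (mean log2 CPM of at least 1, prior count 2). The mitochondrial genes named by that rule, MT-ND4L, MT-CO2 and MT-ND4, fell by 1.13, 1.12 and 1.10 on the log2 scale. In that list 12 of 13 were called lower, beside 9.02% of all genes. Some genes that the rule or a list holds are not reported here by name. Alternatives were DESeq2 1.42.0, limma-voom (limma 3.58.1), size factors by RLE, library totals alone, other filters, fits of the compared groups only, a replicate block, omission of mitochondrial genes and pseudogenes, GC and length offsets (mgcv 1.9.3), and omission of each library.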

Additional observations from a re-analysis of the deposited data

How the results depend on the processing

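The NEAT1 rise kept its direction and stayed past the threshold under every alternative fitted, at 0.40 to 0.63 for transfected, 0.46 to 0.77 for empty vector and 0.30 to 0.49 for FOXF1 plasmid against untreated cells (adjusted p at most 0.000182, 5.39e-05 and 0.0201). MALAT1 in transfected cells was 0.16 on library totals alone, -0.17 with GC and length offsets (adjusted p = 0.0415) and -0.10 to 0.00 with single libraries left out, reaching 0.00 without the first empty vector library. MALAT1 with the empty vector was 0.40 on library totals alone and -0.05 with the offsets. Between the transfected groups the offsets gave -0.23 for MALAT1 and -0.07 for NEAT1, and leaving out single libraries gave -0.48 to -0.30 and -0.26 to -0.13. The causes were not tested. The log2 ratio of NEAT1 to MALAT1 differed by 0.49 as a median (exact permutation p = 0.0714). The choice of MALAT1 can bear on that median. The difference was 0.38 with the empty vector alone, without a test, and 0.44 to 0.54 with single libraries left out. Without an untreated library the exact permutation p was 0.0714, the smallest that 2 untreated libraries allow. Without a transfected library no p is given, since the choice of MALAT1 bears on transfected groups of unequal size. Counts of called genes moved more. Transfected against untreated cells gave 3034 calls, 5350 on library totals alone (5015 higher against 1557), 3781 with offsets (1305 higher), and 1864 to 3566 with single libraries left out, the fewest without the first untreated library. The empty vector gave 3209, 6059 on totals alone (5721 higher) and 2092 to 3897, the fewest without its second library. The FOXF1 plasmid against untreated cells gave 1394, 2500 on totals alone (2320 higher), 2329 with offsets (811 higher) and 817 to 1729, with 883 and 817 without untreated library 1 and 2 and 927 and 875 without FOXF1 plasmid library 2 and 3. Between the transfected groups there were 9 calls, 92 by DESeq2, 16 with RLE size factors, 96 with no filter on low counts (40 lower), 1 without mitochondrial genes and pseudogenes, and 1 to 326 with single libraries left out, namely 326 and 2 without the first and second empty vector libraries, 1 without the second FOXF1 plasmid library, and 23 and 16 without untreated library 1 and 3. Of 46 named genes called in transfected cells, 26 were called on library totals alone, 39 with offsets, 44 with RLE, 45 by DESeq2 and 43 by limma-voom. Library numbers did not pair the samples, since same-numbered libraries correlated at -0.09 to 0.084 in 9 pairs and 6 of 18 matched their own number best. A replicate block gave 0.43 for NEAT1 (adjusted p = 3.52e-06) and -0.05 for MALAT1 in transfected cells, and 3130, 3292, 1544 and 16 calls in the 4 contrasts. The fit of only the groups compared has no counterpart for the transfected contrast, which uses all groups.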
